A study of Homo sapiens with 9 samples.

Results

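The 10 genes below encode enzymes of amino acid and folate one-carbon synthesis and were chosen by name: ASNS, PHGDH, PSAT1, PSPH, SHMT2, MTHFD2, CTH, CBS, ALDH18A1 and PYCR1. Earlier results of these data were known when they were chosen, so their shared direction is no independent evidence. All 10 were measured, out of 11963 genes, by 14 of the array's 22277 probe sets that carry only a member's symbol, and SHMT2 had 3 of them, PSPH and CTH 2 each. A further probe set is shared by PHGDH with MZT2A and MZT2B and is assigned to no gene.

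The cells were LNCaP, an androgen-responsive line from a human prostate cancer metastasis, and all groups were first starved of steroid hormones for 2 days by culture in 10% charcoal-stripped serum. One group then received 1 nM R1881, a synthetic androgen, together with gedunin at 20 µM. Gedunin is a limonoid from neem-family trees that is known to impair HSP90 function. The next received 1 nM R1881 with DMSO, and the last the vehicles ethanol and DMSO. Every group held 3 arrays, which the titles call biological replicates of this single line without saying that cultures were separate, so p-values measure the spread between these arrays. In addition, no group received gedunin without R1881. By the labels, the contrast with vehicle thus changes both agents at once, and their effects cannot be told apart there. Treatment lasted 24 h by the protocols of all groups, but the titles of the R1881 arrays give 6 h, so a difference in time and an effect of gedunin cannot be told apart against that group.

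The groups labelled R1881 and vehicle go against androgen-responsive genes. KLK3, the prostate-specific antigen gene, had an intensity of 6872, 7144 and 7629.9 on the gedunin arrays, 1375, 1424 and 1224 on the arrays labelled R1881, and 11947, 12290.0 and 11280.5 on the arrays labelled vehicle. FKBP5, a co-chaperone gene that androgen raises in prostate cells, read 109.5, 115 and 139.7 on the gedunin arrays, 43.3, 48.8 and 43.3 on the arrays labelled R1881, and 1796, 1970.5 and 1679 on the arrays labelled vehicle. Both were far lower under the R1881 label than under the vehicle label, so these groups are called by their labels only, and the gedunin arrays are set against each of them. Which of these groups differs from the gedunin arrays in androgen exposure is thus not settled. In neither contrast can an effect of gedunin be told apart from one of androgen. Array medians lay between 52.4 and 54.5. All 7 measured luminal prostate markers exceeded the array median on every array, while the 3 basal epithelial markers did so on none. Of the other lists, 3 of 5 fibroblast and 1 of 4 leukocyte markers exceeded it on all arrays of each group, as did, of 4 neuroendocrine markers, 1 with gedunin, 2 under the R1881 label and 1 under the vehicle label. The summed luminal level was 14148 to 15367 with gedunin, 5844 to 6373 under the R1881 label and 26426 to 28551 under the vehicle label. Its largest terms in each group were KLK3 and KRT18, and the markers did not share 1 direction. Under the R1881 label 4 of the 7 were lower and 2 higher than under the vehicle label (limma, adjusted p under 0.05), beside 13.6% and 16.7% of all genes. The 2 were HOXB13, with means of 1147 and 762 under these labels, and EPCAM, with 725 and 535. The summed fibroblast level was 371 to 393 with gedunin, 351 to 408 under the R1881 label and 366 to 388 under the vehicle label, and the part of any of these cell types in the results was not tested. In bulk RNA, fewer cells that express a gene and less RNA per cell cannot be told apart.

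These enzymes supply building blocks for protein, nucleotide and glutathione synthesis. PHGDH, PSAT1 and PSPH turn a glycolytic intermediate into serine, SHMT2 passes a carbon of serine to folate in mitochondria while releasing glycine, and MTHFD2 oxidises the resulting folate. CBS and CTH carry sulfur from homocysteine to cysteine, ALDH18A1 and PYCR1 catalyse the first and last steps from glutamate to proline, and ASNS makes asparagine from aspartate. Several of the genes are known targets of ATF4, a transcription factor whose translation rises when cells lack amino acids or load the endoplasmic reticulum with unfolded protein.

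On the gedunin arrays 8 of the 10 genes were higher than on the arrays labelled R1881 and 0 were lower, where 14% and 13.4% of all genes were called higher and lower (limma, Benjamini-Hochberg adjustment over all genes, threshold 0.05). At an unadjusted p under 0.05 the members lower were also 0. Against the arrays labelled vehicle 5 were higher and 2 lower, beside 15% and 11.9% of all genes. ASNS, PSAT1, PHGDH, MTHFD2 and SHMT2 were the 5 that rose against both groups. The median log2 fold change of the members was 0.52 against the R1881 label and 0.18 against the vehicle label, where the median of all genes was -0.01 in both. These comparisons share the gedunin arrays and are not independent. At least 2-fold higher against the R1881 label were 3 members, ASNS, MTHFD2 and PSAT1, beside 1.65% of all genes. PSAT1 lay at that line: its log2 fold change ran from 0.93 to 1.05 over the alternatives, and it was under 2-fold with a further quantile normalisation (0.93), with array weights, and without gedunin replicate 1 or 2 or R1881 replicate 1 or 3 (0.98 to 0.99).

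**Figure D1:**
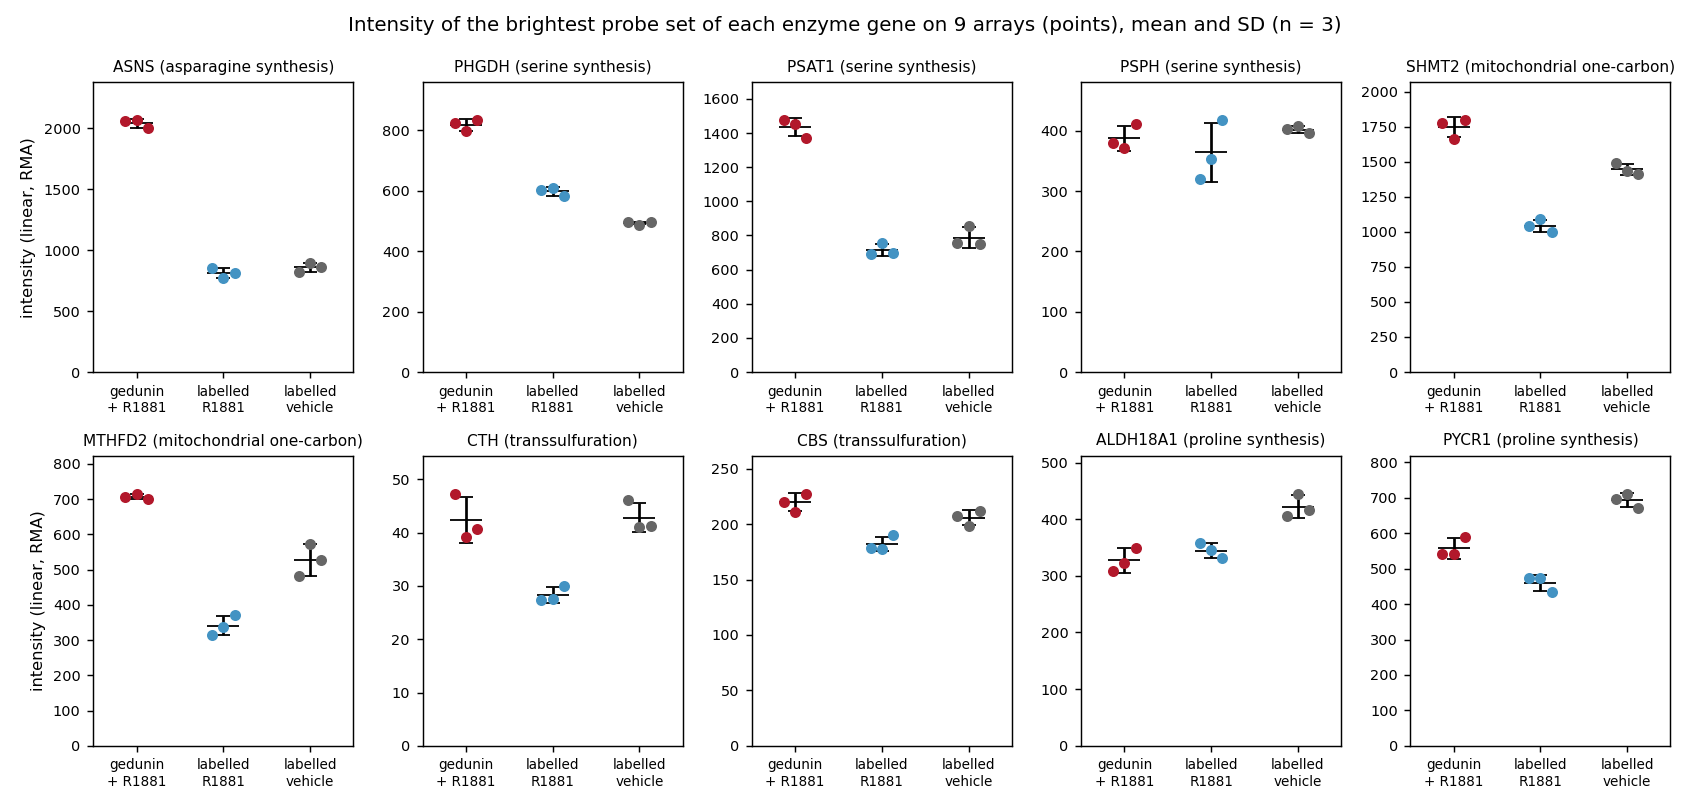
Linear RMA intensity of the brightest probe set of each enzyme gene, with 1 panel per gene, points for arrays and bars for the mean and SD of 3 arrays per group. Axes start at 0 and differ between panels. The gedunin arrays stand above all other arrays for ASNS, PHGDH, PSAT1, SHMT2 and MTHFD2, and the arrays labelled vehicle stand above all others for ALDH18A1 and PYCR1.

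ASNS, asparagine synthetase, had the largest change of the 10. It read 2056, 2067 and 2000.4 on the gedunin arrays, 852, 769.8 and 810.1 on the arrays labelled R1881, and 823, 898 and 859 on the arrays labelled vehicle. The gedunin arrays lay above all 6 others, whose ranges overlapped. The rise was 2.52-fold over the R1881 label (log2 fold change 1.33 ± 0.06, SE, limma adjusted p = 2.57e-09) and 2.38-fold over the vehicle label (1.25 ± 0.06, adjusted p = 4.63e-09). Between these labels ASNS differed by -0.09 ± 0.06 (adjusted p = 0.325), which did not pass. RefSeq lists 5 pseudogenes named after ASNS, 4 after PSAT1, 7 after MTHFD2 and 1 after PSPH, and the share of signal that such copies could give these probe sets was not tested.

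Upstream sequence is shown for the ASNS start whose window matches the letters of the C/EBP-ATF motif, for PSAT1, PHGDH and MTHFD2, which also rose against both labels, and for ALDH18A1, which rose against neither. The RefSeq promoter table (GRCh38.p14) held 7 of the 10 genes, with 2 starts for ASNS, 3 for CBS and 1 for each of the others; PSPH, SHMT2 and PYCR1 had no entry. Each line below runs 5′ to 3′ on the gene's strand over the 150 bases before the start, with motif matches in capitals. The windows are chr7:97872409-97872558 (minus strand) for ASNS, chr9:78296975-78297124 (plus strand) for PSAT1, chr1:119711784-119711933 (plus strand) for PHGDH, chr2:74198465-74198614 (plus strand) for MTHFD2 and chr10:95656712-95656861 (minus strand) for ALDH18A1.
ASNS: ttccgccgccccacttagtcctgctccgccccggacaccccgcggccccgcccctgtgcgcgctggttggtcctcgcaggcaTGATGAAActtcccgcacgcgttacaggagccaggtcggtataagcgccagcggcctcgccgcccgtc
PSAT1: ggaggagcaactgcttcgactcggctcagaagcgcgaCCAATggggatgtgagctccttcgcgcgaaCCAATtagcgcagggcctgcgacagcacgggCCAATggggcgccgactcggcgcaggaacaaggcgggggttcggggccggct
PHGDH: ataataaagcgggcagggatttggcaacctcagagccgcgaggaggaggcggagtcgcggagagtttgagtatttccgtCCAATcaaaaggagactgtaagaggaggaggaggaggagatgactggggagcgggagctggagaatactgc
MTHFD2: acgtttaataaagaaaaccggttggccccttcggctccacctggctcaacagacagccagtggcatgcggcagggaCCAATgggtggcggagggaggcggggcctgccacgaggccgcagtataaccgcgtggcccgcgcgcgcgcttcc
ALDH18A1: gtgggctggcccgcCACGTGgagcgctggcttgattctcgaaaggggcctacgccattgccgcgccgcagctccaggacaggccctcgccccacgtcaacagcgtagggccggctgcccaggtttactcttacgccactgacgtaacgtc
Both strands of the whole table window, 250 bases before to 50 after each start, were searched for TGATGNAA, the core of the C/EBP-ATF response element, for CACGTG, the E-box bound by MYC, and for CCAAT. No match of one motif overlapped a match of another in the lines shown. TGATGNAA was present for 1 of the 7 member genes and for 4.46% of the 27305 genes in the table (3.62% of its 35116 promoters): it began at base -68 of an ASNS start, as TGATGAAA, while the other ASNS start had no match. CACGTG was present for ALDH18A1 alone among the 7, at -136, and for 8.77% of genes (7.26% of promoters). CCAAT was present for 5 of the 7 genes and for 39.7% of all genes (34.6% of promoters), with 3 matches for PSAT1, at -113, -83 and -52, 1 for PHGDH at -71 and 2 for MTHFD2, at -184 (outside the printed stretch) and -74. A match describes letters in the window and is not a site or a cause.

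In the serine branch PHGDH and PSAT1 rose on the gedunin arrays and PSPH did not pass. PSAT1, phosphoserine aminotransferase, read 1476, 1455 and 1374 on the gedunin arrays, 692, 757 and 697 on the arrays labelled R1881, and 758, 857 and 747 on the arrays labelled vehicle. The gedunin arrays were clear of both, and the other groups overlapped each other. The rise was 2.01-fold over the R1881 label (1.00 ± 0.07, SE, limma adjusted p = 1.16e-07) and 1.82-fold over the vehicle label (0.87).

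PHGDH, the dehydrogenase that opens serine synthesis, read 824, 797 and 834 on the gedunin arrays, 604, 609 and 582 on the arrays labelled R1881, and 495, 488 and 496 on the arrays labelled vehicle. All 3 groups were apart, in that order. It was 1.37-fold higher with gedunin than under the R1881 label (0.45 ± 0.05, SE) and 1.66-fold higher than under the vehicle label (0.73 ± 0.05). PHGDH was also the only member called higher on the arrays labelled R1881 than on those labelled vehicle (1.21-fold, 0.28 ± 0.05, limma adjusted p = 0.000896). The probe set shared with MZT2A and MZT2B behaved otherwise, at 1077, 1060.0 and 1135 with gedunin, 1104, 1130 and 1132 under the R1881 label and 1315, 1236 and 1283 under the vehicle label.

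PSPH, the phosphatase that completes serine, read 380.3, 371 and 412 on the gedunin arrays, 321, 354 and 418 on the arrays labelled R1881, and 403, 407 and 396 on the arrays labelled vehicle. The groups overlapped, and the arrays labelled R1881 were spread most (SD 49.3, against 21.2 with gedunin and 5.70 under the vehicle label). The second PSPH probe set showed the same wide group, at 229, 179 and 296 under the R1881 label, and replicate 3 of that label was the highest of its group on both. Log2 fold changes of PSPH were 0.10 ± 0.08 against the R1881 label and -0.05 ± 0.08 against the vehicle label, and neither passed. Without R1881 replicate 3 the first became 0.20 and passed (limma adjusted p = 0.0443), and PSPH was also called lower under the R1881 label than under the vehicle label (-0.26, adjusted p = 0.0126).

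**Figure D2:**
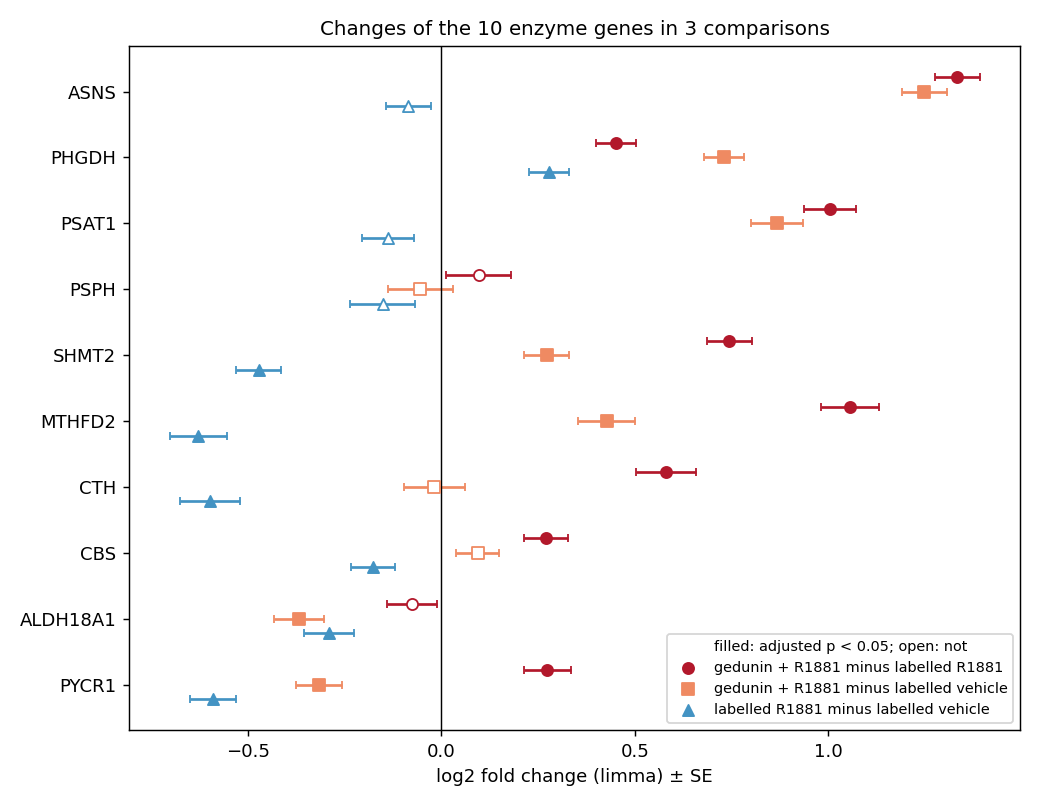
Log2 fold changes from limma with standard errors for the 10 enzyme genes (rows) in 3 comparisons, filled where the adjusted p is under 0.05. Circles and squares lie right of 0 for ASNS, PHGDH, PSAT1, SHMT2 and MTHFD2, both proline genes have squares left of 0, and PHGDH has the only triangle right of 0.

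Both mitochondrial one-carbon genes were highest with gedunin and lowest under the R1881 label. MTHFD2 read 705, 715 and 700.3 on the gedunin arrays, 316, 337 and 369.8 on the arrays labelled R1881, and 481, 572 and 528 on the arrays labelled vehicle. The 3 groups did not overlap. MTHFD2 was 2.08-fold higher with gedunin than under the R1881 label (1.06 ± 0.07, SE, limma adjusted p = 1.89e-07) and 1.34-fold higher than under the vehicle label (0.43 ± 0.07). It was 1.55-fold lower under the R1881 label than under the vehicle label.

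SHMT2, mitochondrial serine hydroxymethyltransferase, had 3 probe sets. The brightest read 1777, 1663 and 1797 on the gedunin arrays, 1038, 1089 and 999.9 on the arrays labelled R1881, and 1490.3, 1432 and 1413 on the arrays labelled vehicle. Its groups were fully apart, and the gene was 1.67-fold higher with gedunin than under the R1881 label and 1.21-fold higher than under the vehicle label. Log2 fold changes over the R1881 label ran from 0.74 to 0.88 across the 3 probe sets, all called, and over the vehicle label from 0.22 to 0.30, where the dimmest probe set did not pass (limma adjusted p = 0.11 over all probe sets). On that probe set gedunin replicate 2 read 244, inside the range of the arrays labelled vehicle (240.4 to 253).

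Both transsulfuration genes were higher with gedunin than under the R1881 label, and neither passed against the vehicle label. CBS, cystathionine beta-synthase, read 220.4, 211 and 227 on the gedunin arrays, 179, 178 and 189.9 on the arrays labelled R1881, and 207, 199 and 212 on the arrays labelled vehicle. It was 1.21-fold higher with gedunin than under the R1881 label (0.27 ± 0.06, SE), with no overlap, and overlapped the arrays labelled vehicle (0.09 ± 0.06, not called). CTH, cystathionine gamma-lyase, stayed under 52.4, the lowest array median, on all arrays with both of its probe sets, so its folds are approximate. The brighter probe set read 47.3, 39.2 and 40.7 on the gedunin arrays, 27.3, 27.6 and 29.9 on the arrays labelled R1881, and 46.1, 41.1 and 41.3 on the arrays labelled vehicle. The gedunin arrays lay above those labelled R1881 and overlapped those labelled vehicle. That probe set rose by 0.58 ± 0.08 (SE, log2) over the R1881 label, but the other was at 0.17 and did not pass (limma adjusted p = 0.124 over all probe sets). The mean of both gave 0.38. The dimmer CTH probe set held the same deposited value, 30.5, on 4 of the 9 arrays, and the source of such ties was not tested.

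The proline genes were highest on the arrays labelled vehicle. PYCR1, pyrroline-5-carboxylate reductase, read 541, 541 and 590.1 on the gedunin arrays, 475, 473 and 435 on the arrays labelled R1881, and 696, 711 and 673 on the arrays labelled vehicle. All 3 groups were apart, so PYCR1 rose over the R1881 label (0.27 ± 0.06, SE) and fell below the vehicle label (-0.32 ± 0.06). ALDH18A1, which reduces glutamate in the first step, read 308, 323 and 350.04 on the gedunin arrays, 358, 345 and 331 on the arrays labelled R1881, and 405, 445 and 416 on the arrays labelled vehicle. The gedunin arrays overlapped the arrays labelled R1881 (-0.08 ± 0.06, not called) and lay wholly below those labelled vehicle (-0.37 ± 0.06, 1.29-fold lower).

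**Figure D3:**
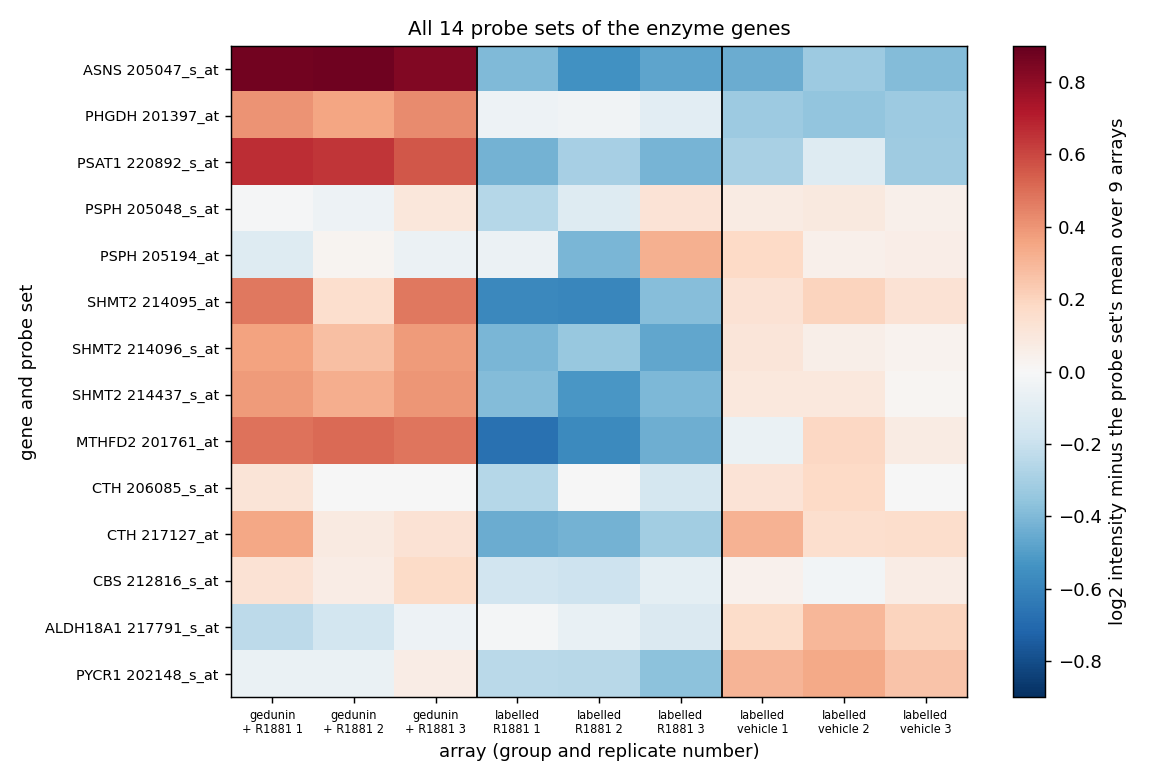
Log2 intensity of each of the 14 probe sets (rows) on the 9 arrays (columns), minus the probe set's mean over all arrays, in red where above that mean and in blue where below. The SHMT2 rows share their pattern across arrays, the PSPH rows show replicate 3 of the R1881 label as the highest of its group, and the ALDH18A1 and PYCR1 rows are reddest under the vehicle label.

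The third contrast, of the arrays labelled R1881 with those labelled vehicle, had 1 member higher and 6 lower, beside 16.7% and 13.6% of all genes. The 6 were MTHFD2 (-0.63 ± 0.07, SE), CTH (-0.60 ± 0.08), PYCR1 (-0.59 ± 0.06), SHMT2 (-0.47 ± 0.06), ALDH18A1 (-0.29 ± 0.06) and CBS (-0.18 ± 0.06). The members' median was -0.23, and the median of all genes 0.00. The call of CBS (limma adjusted p = 0.0305) was lost without vehicle replicate 1 (adjusted p = 0.0808), vehicle replicate 3 (0.108), R1881 replicate 1 (0.089) or R1881 replicate 2 (0.0945). Of the 10 genes, 8 had their lowest mean under the R1881 label, 1 (ALDH18A1) with gedunin and 1 (PHGDH) under the vehicle label. The 8 include ASNS, PSAT1 and PSPH, which were not called between these labels. The share of all genes lowest under the R1881 label was not computed, so this count only describes the members. Counted by probe set, 10 of 14 were higher with gedunin than under the R1881 label (12.4% of all probe sets), 6 higher and 2 lower than under the vehicle label (12.9% and 10.6%), and 1 higher and 9 lower under the R1881 than under the vehicle label (14.8% and 12.2%).

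Changes within a branch were compared on the same arrays, for 4 pairs of genes chosen after their values were seen. On the log2 scale PSAT1 minus PSPH was larger with gedunin by 0.91 than under the R1881 label and by 0.92 than under the vehicle label, and PHGDH minus PSPH by 0.35 and 0.79. MTHFD2 minus MTHFD1, its cytosolic counterpart, was larger by 1.83 and 1.00. PYCR1 gained 0.35 on ALDH18A1 against the R1881 label, and 0.05 against the vehicle label (exact two-sided permutation p = 0.3). All of these except the one just given for PYCR1 had p = 0.1 in the exact permutation test. With 3 arrays per group it cannot go lower, so no pair could pass at 0.05 and the test decides nothing here. After adjustment over 12 tests, which include the same pairs between the R1881 and vehicle labels, these values were 0.12.

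Of 13 other measured folate genes, 1 was higher and 6 were lower with gedunin than under the R1881 label (median log2 fold change 0.00), and 3 were higher and 3 lower than under the vehicle label (median -0.02). For this and each later list, the shares of all genes higher and lower were 14% and 13.4% against the R1881 label. Against the vehicle label they were 15% and 11.9%, and list counts near these shares say nothing particular about the list. MTHFD1, the trifunctional cytosolic enzyme, read 281, 284 and 312 on the gedunin arrays, 468, 503 and 529 on the arrays labelled R1881, and 421, 457 and 426 on the arrays labelled vehicle, and its gedunin arrays lay below the other 6. It fell by 0.77 ± 0.07 (SE) against the R1881 label and by 0.57 against the vehicle label, and MTR, methionine synthase, fell by 0.91 and 0.44. ATIC, a purine synthesis enzyme that uses formyl-folate, fell by 0.68 against the R1881 label and was at 0.12 against the vehicle label, not called. SLC19A1, the reduced folate carrier, was at -0.68 and -0.76, though another of its 4 probe sets was near 0 (-0.01 and 0.04). TYMS, thymidylate synthase, fell by 0.89 against the R1881 label and rose by 0.47 against the vehicle label, while its other probe set was at -0.08 and -0.09. Also higher against the vehicle label were GGH (0.71 ± 0.07) and MTRR (0.34 ± 0.07), whose other probe set was at 0.19. Against the R1881 label GGH was at 0.05 and MTRR at 0.00, neither called. SHMT1, the cytosolic counterpart of SHMT2, averaged 15.7 ± 0.70 with gedunin, 16.1 ± 1.41 under the R1881 label and 16.4 ± 0.23 under the vehicle label (SD, n = 3), far under the array median, and did not pass. SLC25A32, the mitochondrial folate transporter, was the gene called higher against the R1881 label (0.35 ± 0.11), with overlapping arrays.

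**Figure D4:**
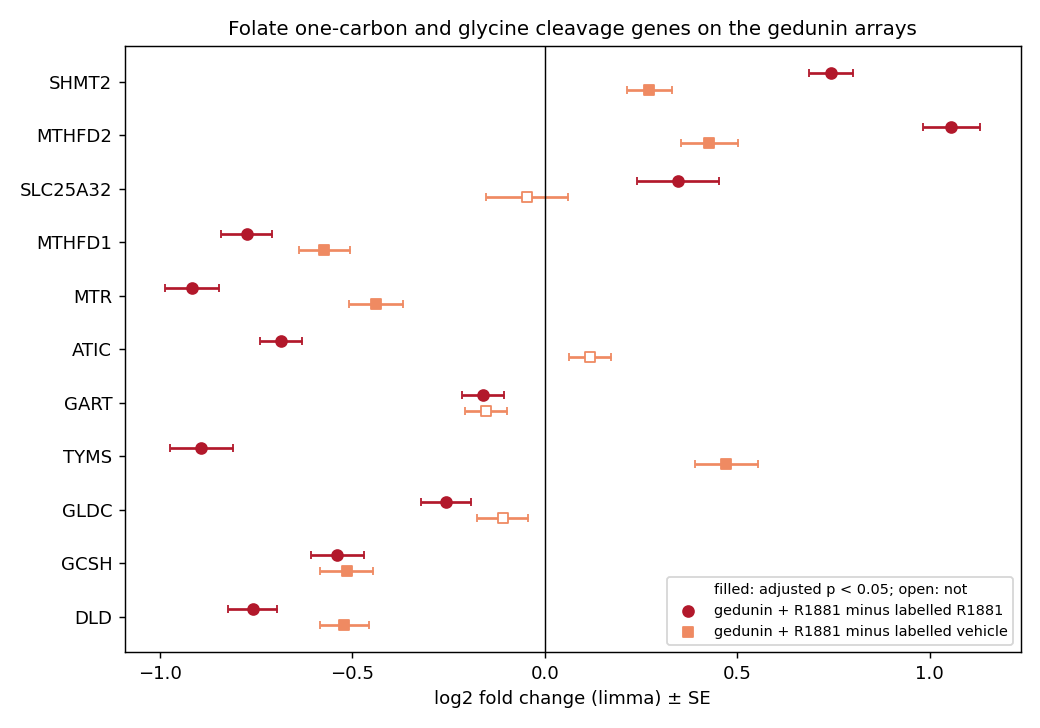
Log2 fold changes from limma with standard errors on the gedunin arrays against each label, for SHMT2, MTHFD2 and other measured folate and glycine cleavage genes, filled where the adjusted p is under 0.05. SHMT2 and MTHFD2 lie right of 0 in both comparisons, and MTHFD1, MTR, GART, GLDC, GCSH and DLD left of 0 in both. TYMS, ATIC and SLC25A32 lie on opposite sides, with both points filled for TYMS only.

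Of 9 other genes of serine and glycine synthesis and cleavage, among them glycolytic enzymes upstream of PHGDH or beside it, 1 was higher and 3 were lower with gedunin than under the R1881 label (median -0.14), and 2 were higher and 3 lower than under the vehicle label (median -0.11). The gene higher against both was PGK1, the glycolytic phosphoglycerate kinase (0.17 against the R1881 label and 0.22 against the vehicle label). Another of its 4 probe sets was at -0.15 against the R1881 label, so that small rise depends on the probe set. SRR, serine racemase, was higher against the vehicle label (0.18). GCSH and DLD, subunits of the glycine cleavage system, fell by 0.54 and 0.76 against the R1881 label and by 0.51 and 0.52 against the vehicle label; DLD also serves other mitochondrial dehydrogenases. GLDC, the glycine-decarboxylating subunit, was at -0.26 against the R1881 label, where its mean of 27.8 with gedunin and 33.2 under that label lay below the array median. Of 15 other methionine cycle and sulfur genes 2 were higher and 5 lower against the R1881 label (median -0.10) and 3 higher and 5 lower against the vehicle label (median -0.08). MAT2A, which makes S-adenosylmethionine, was higher by 0.38 against the R1881 label and was at 0.06 against the vehicle label, not called. SUOX, sulfite oxidase, fell by 0.62 and 0.95 against the R1881 and the vehicle label. GNMT, a glycine methyltransferase, rose by 2.38 against the R1881 label and fell by 1.46 against the vehicle label. Higher against the vehicle label were SQOR (0.76), CSAD (0.36) and AHCYL1 (0.31), though another of the 4 AHCYL1 probe sets was at 0.13. Against the R1881 label SQOR and CSAD were lower (-0.25 and -0.53), and AHCYL1 was at -0.10, not called.

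Around proline and glutamate, 3 of 8 other genes were higher and 0 lower with gedunin than under the R1881 label (limma, median 0.08; 0 lower at an unadjusted p under 0.05), and 1 was higher and 4 lower than under the vehicle label (median -0.25). OAT, which links ornithine to the proline pathway, read 112, 107 and 95.9 on the gedunin arrays, 56.6, 51.6 and 63.7 on the arrays labelled R1881, and 75.8, 82.9 and 71.3 on the arrays labelled vehicle, with no overlap. GLUD1, glutamate dehydrogenase, measured with probes that the near-identical GLUD2 may share, read 397, 405 and 419 with gedunin, 340.2, 359 and 366 under the R1881 label, and 1260, 1304 and 1208 under the vehicle label. Its fall against the vehicle label (-1.63 ± 0.06, SE) was the largest of this list, and PYCR3, a further reductase of the proline pathway, was also lower there (-0.42 ± 0.09). Of 11 transamination and aspartate genes, 2 were higher and 4 lower against the R1881 label (median 0.05) and 0 were higher and 5 lower against the vehicle label (limma, median -0.20; 1 higher at an unadjusted p under 0.05). Of the aspartate aminotransferases, cytosolic GOT1 rose by 0.76 against the R1881 label and was at 0.14 against the vehicle label (limma adjusted p = 0.0744, not called). Mitochondrial GOT2 fell by 0.42 against the R1881 label and by 0.77 against the vehicle label.

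Regulators linked to these enzymes were mostly higher with gedunin. Of 19 measured stress regulators 15 were higher and 1, MYC, was lower than under the R1881 label (median 0.67), and 11 were higher and 2, MYC and VLDLR, lower than under the vehicle label (median 0.53). HMOX1, the oxidative stress gene for heme oxygenase, read 2861, 2039.8 and 1936 with gedunin, 41.0, 47.6 and 43.6 under the R1881 label, and 48.4, 39.2 and 42.0 under the vehicle label. The list of regulators was written with earlier results of these data known, so its direction is no independent evidence. ATF4 read 4764, 4646 and 4278 on the gedunin arrays, 2214, 2262 and 2092 on the arrays labelled R1881, and 2758, 2862 and 2736 on the arrays labelled vehicle. All 3 groups were apart, with log2 fold changes of 1.06 ± 0.06 (SE) over the R1881 label and 0.71 ± 0.06 over the vehicle label. The ATF4 targets and partners ATF3 (2.51 and 1.85), DDIT3 (1.35 and 1.35) and TRIB3 (1.22 and 0.91) rose against the R1881 and the vehicle label, and NUPR1 rose by 1.44 and 1.02. ATF3 read 150.6 on each of the 3 arrays labelled vehicle, an exact tie. On the same list CHAC1 was at 0.43 against the R1881 label and 0.00 against the vehicle label, the second not called. PPP1R15A, at 0.11 and 0.05, was called in neither. MYC, a transcription factor known to drive serine and nucleotide synthesis genes, read 314, 298 and 342 with gedunin, 938, 1009 and 946 under the R1881 label, and 467 on each of the 3 arrays labelled vehicle, an exact tie in the deposited values. EIF2AK3, the PERK kinase gene, was 1.10 lower on the log2 scale (-1.10 ± 0.09) under the R1881 than under the vehicle label. With gedunin EIF2AK3 was at 0.93 against the R1881 label and at -0.18 against the vehicle label, the second not called.

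The members differed in how closely they shared one course across the 9 arrays. As a description, with groups as the main source of spread, the correlation of each gene with the mean of the other 9 was 0.97 for MTHFD2 and SHMT2, 0.92 for CBS, 0.87 for PSAT1, 0.81 for ASNS, 0.77 for CTH, 0.52 for PHGDH, 0.36 for PYCR1, 0.34 for PSPH and -0.25 for ALDH18A1. Among 1447 other genes with a log2 SD of at least 0.3, those most like the mean of the 10 were CEBPB (Pearson r = 0.998), LPIN1 (0.996), TMEM165 (0.996), NPC1 (0.995) and BUD31 (0.995), over 9 arrays that fall into 3 groups. CEBPB, which encodes a C/EBP transcription factor, read 624, 592 and 614 on the gedunin arrays, 231, 258 and 245 on the arrays labelled R1881, and 382, 402 and 364 on the arrays labelled vehicle, with no overlap between any 2 groups. Its log2 fold changes were 1.32 ± 0.06 (SE) against the R1881 label and 0.67 ± 0.06 against the vehicle label.

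**Figure D5:**
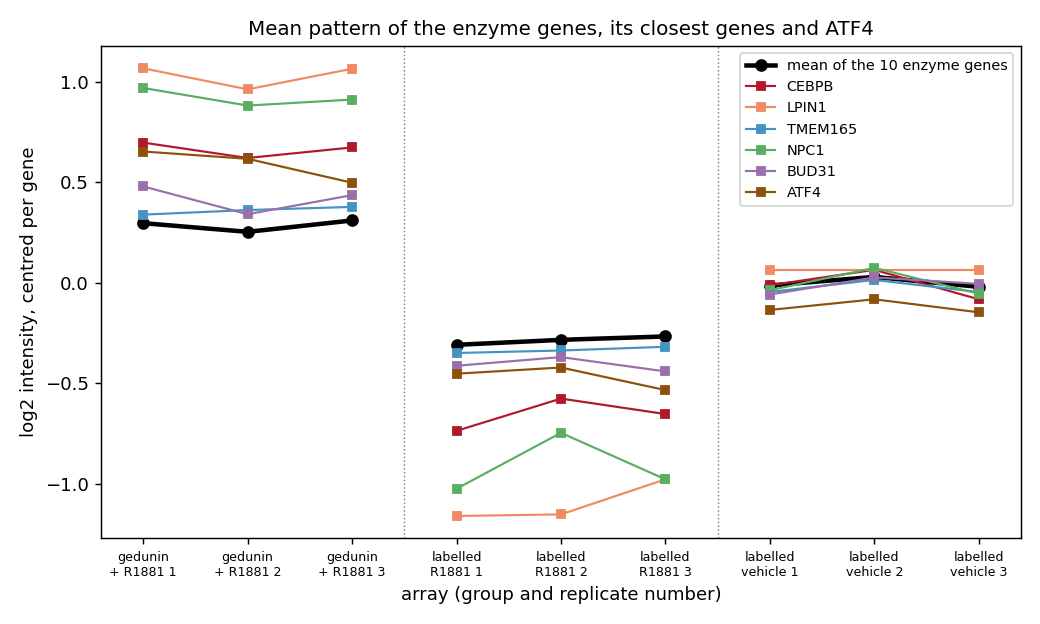
Log2 intensity centred on each gene's mean, by array, for the mean of the 10 enzyme genes (black), the 5 genes of most similar course and ATF4. The gedunin arrays are highest, the arrays labelled R1881 lowest and the arrays labelled vehicle near 0 for every line, with ATF4 somewhat below 0 in the last group; the mean of the enzyme genes lies between 0.25 and 0.31 with gedunin and between -0.31 and -0.27 under the R1881 label.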

How the data were processed

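Trizol RNA of 9 LNCaP samples was hybridised to Affymetrix arrays. What the authors deposited is a linear RMA intensity for each probe set (8.63 to 20189), the method being named in the submitters' processing notes; its version is not given in the sources used here. RMA normalises arrays to one distribution. Log2 was taken of the deposited values. The array's 22277 probe sets comprised 62 controls, and 19064 with 1 symbol in the platform annotation, 1043 with several and 2108 with none. Symbols were compared with RefSeq through Entrez identifiers: 12 had no match and 0 changed. A gene was represented by its brightest probe set (mean over 9 arrays). Tests used limma (version 3.58.1, R version 4.3.3; 1 coefficient per group, all 9 arrays, eBayes without trend, two-sided), adjusted by Benjamini-Hochberg over 11963 genes or, in the probe set fit, over 22215 probe sets; values "over all probe sets" come from that fit, all others from the gene fit. Errors of fold changes are SEs, other errors SDs of 3 arrays, and the number of arrays limits the precision. Alternatives were probe set choice, a filter on dim genes, prior, scaling, arrays used, weights, a replicate block and leaving out arrays. Scripts were tested on simulated data. The members and lists were chosen with earlier results of these data known. All members are named; other genes are up to 4 called, non-overlapping genes of largest change per list and comparison, of which some are printed, and a few fixed genes, of which 1 is not reported here; SLC25A32, CEBPB, PYCR3 and others beyond this were chosen after their values were seen or by likeness of pattern.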

Additional observations from a re-analysis of the deposited data

How the results depend on the processing

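Over 19 alternatives, 561 of 567 recomputed changes of single member genes stayed on their side of the threshold, and 0 that were called turned direction; the other 6 came from leaving out 1 array and concern CBS and PSPH, as given above. Counts of members called stayed within 1.5 times of those reported under every alternative run: between 7 and 9 genes were higher with gedunin than under the R1881 label, 5 were higher and 2 lower than under the vehicle label, and between 5 and 7 were lower under the R1881 than under the vehicle label. The count of 7 higher comes from a filter on dim genes, which leaves CTH untested. Deviations of arrays with the same title number correlated between -0.107 and 0.133, and 6 of 18 array and group combinations matched best on their own number. Between the R1881 and vehicle labels the same-number correlations were 0.133, 0.0923 and 0.0206, and those with gedunin arrays lay between -0.107 and 0.0425. With 3 arrays per group such deviations cannot decide whether the numbers mark pairs. With the replicate block, 8 members were higher with gedunin than under the R1881 label and 6 were lower under the R1881 than under the vehicle label, as without it, and 1642 and 1568 of all genes were called higher and lower with gedunin against the R1881 label. Rescaling moved the median of all genes by less than 0.1. Which label and which time hold for the arrays labelled R1881 could not be settled from the files.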
